A study of Homo sapiens with 12 samples.

Results

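Of the 481 genes with a ZNF number as symbol in the table that compared gemcitabine with no treatment in control cells, 263 had a mean normalized count of 300 or more there. These 263 expressed ZNF genes are described here, out of 22154 genes of any family in that table. The genes were chosen by their symbol and by that mean level over the shCTRL libraries, so the levels in that table, and every change in that comparison, are a description and carry no test. ZNF862 (302), ZNF804A (304) and ZNF14 (305) lay just inside the minimum in the authors' deposited table. ZNF600 (299), ZNF18 (295) and ZNF767P (293) lay just outside it in the same authors' deposited table.

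The libraries came from SUM159, an established triple-negative breast cancer cell line grown as adherent cells. There were 4 groups of 3 libraries. The first group carried a control hairpin (shCTRL) and was untreated, the next carried a hairpin against E4F1 (shE4F1) and was untreated, and the remaining pair carried shCTRL or shE4F1 and received 140 nM gemcitabine for 24 h. E4F1 is itself a zinc finger transcription factor and ubiquitin ligase, and gemcitabine is a nucleoside analogue that blocks DNA synthesis. The labels name a transfection with each hairpin and do not say whether selected clones were used, and nothing in them tells separate cultures from repeat preparations of one culture. The p-values therefore cover the spread among the deposited libraries alone, and that spread may be technical.

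ZNF genes encode proteins that carry classical zinc fingers, short loops held by a zinc ion that usually read DNA and sometimes bind RNA or protein. Many carry a KRAB domain, which recruits the corepressor TRIM28 and, through it, histone methyltransferases and heterochromatin proteins, and KRAB genes lie in dense clusters on chromosome 19 that grew by gene duplication. Others carry a SCAN domain for pairing with one another, or no such domain, and act as activators, adaptors of chromatin complexes or RNA-binding proteins.

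All 263 genes had an adjusted p-value in every one of the 4 deposited comparisons. In GENCODE 29 (GRCh38) 261 of them were protein coding and 2, ZNF252P and ZNF271P, were transcribed pseudogenes. Pattern searches of the encoded proteins found a KRAB domain in 145, of which 79 lay on chromosome 19, and a SCAN domain without KRAB in 10. The other loci had no match to either pattern, 17 of them on chromosome 19 and 91 elsewhere, with the pseudogenes, which were not searched, counted among them. The search used short sequence patterns in a chosen protein of each gene and can miss a domain. Genes said below to be without KRAB or to have neither domain are therefore those without a match. The same KRAB pattern was found in 39 of 19120 coding genes outside the zinc finger symbols. The encoded proteins had a median of 10 finger patterns, from 0 to 34, with a median of 12 in KRAB proteins and 7 in the rest. Not every gene with a ZNF symbol had a classical finger by this search: 7 coding genes, among them ZNF365, ZNF330 and ZNF451, had 0.

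The mean level in the authors' deposited table of the control comparison ranged from 302 to 12333 with a median of 729, on a scale of normalized counts that is not divided by transcript length. ZNF770 (12333), ZNF664 (9997), ZNF146 (8338), ZNF24 (6963), a SCAN protein, and ZNF207 (6781), a kinetochore and splicing protein, had the highest mean counts in that authors' deposited table. Values per library are not given, because the 12 columns of the count table bear names that match no sample label, and the depth of each library is unknown here. Group levels below were worked out from a table's mean level and fold change. Scaling differed between tables: the level of the untreated shCTRL group was a median of 1.16 times higher in the gemcitabine comparison than in the untreated knockdown comparison of the authors' deposited tables. Levels are therefore compared only within a table.

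E4F1 itself, the targeted gene, fell in shE4F1 cells by 0.99 ± 0.26 (log2, SE; adjusted p = 0.000778, DESeq2 Wald test) untreated and by 0.91 ± 0.16 (adjusted p = 1.47e-07, DESeq2) under gemcitabine in the authors' deposited tables. The mesenchymal marker VIM had a mean level of 70720 in the authors' deposited table of the control comparison. The estrogen receptor gene ESR1 (4.95) and the epithelial cadherin CDH1 (9.23) were near 0 beside it in the authors' deposited table. The epithelial keratins KRT8 (2748) and KRT18 (2547), the luminal factor GATA3 (588), the basal keratin KRT5 (464) and ERBB2 (2831) were present in the same authors' deposited table, and so was the leukocyte gene PTPRC (144). The basal genes TP63 (1766) and EGFR (7306) were present too. Another basal keratin, KRT14 (2.86), and the endothelial gene VWF (6.97) were near 0 in the same authors' deposited table. PTPRC fell to 0.215 of the shCTRL level in shE4F1 cells in the authors' deposited table of the untreated comparison. FN1 (4.29-fold) and the endothelial gene PECAM1 (2.64-fold) rose there in the authors' deposited table, and the part of these genes in the results was not tested. In such bulk RNA, fewer cells of a kind and less RNA per cell cannot be told apart.

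**Figure D1:**
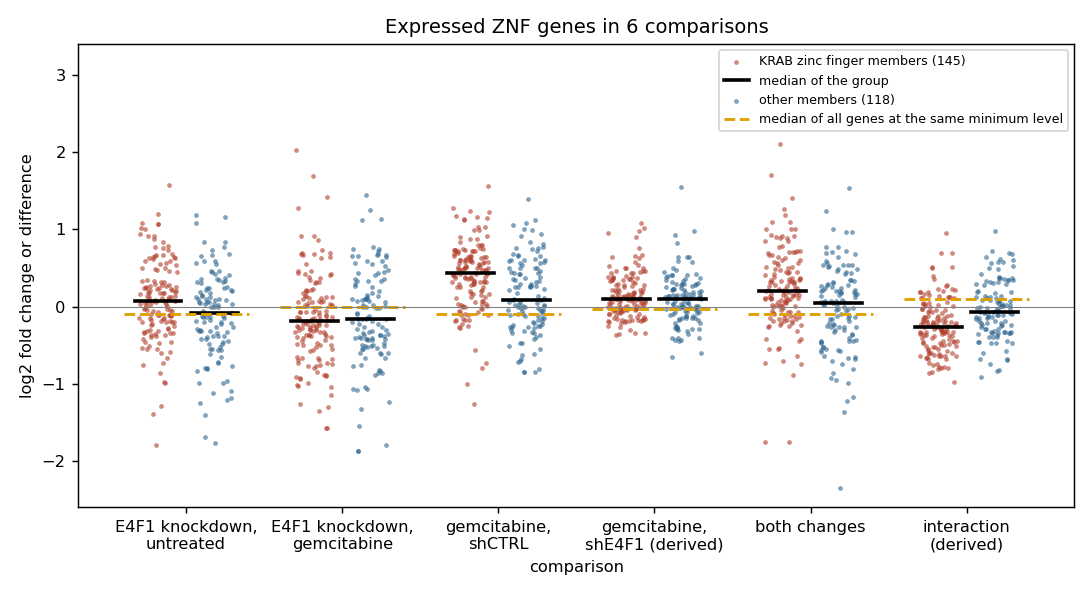
Log2 fold change or difference (vertical axis) of the 263 expressed ZNF genes in 6 comparisons (horizontal axis), each point a gene, for the 145 with KRAB (red) and the 118 others (blue). Black bars are the medians of each set and dashed lines those of all genes at the same minimum level; the KRAB median was 0.44 for gemcitabine in shCTRL cells and -0.27 for the difference of knockdown effects.

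The first comparison asked how the ZNF genes answered to E4F1 knockdown without drug. Of the 263 genes, 57 rose and 50 fell at an adjusted p under 0.05 in the authors' deposited table, beside 17.5% of all genes that rose and 19.3% that fell. Among the 10027 genes of any family at the same minimum level, 20.1% rose and 29.9% fell, and their median was -0.09 against 0.03 for the ZNF genes in the authors' deposited table. Among the 79 KRAB genes of chromosome 19, 22 rose and 7 fell in the authors' deposited table, with a median of 0.16. The 10 SCAN genes without KRAB had 0 that rose and 4 that fell, and the 17 genes of chromosome 19 with neither domain had 2 that rose and 7 that fell in the authors' deposited table. The member rule rests on shCTRL libraries, and 37 of the genes had a mean under 300 in this authors' deposited table.

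ZNF254, a KRAB gene at chr19:24033405-24129961 (GRCh38, plus strand), had the largest rise. Its level was 274 in untreated shCTRL and 815 in untreated shE4F1 cells, a log2 change of 1.57 ± 0.17 (adjusted p = 9.9e-19, DESeq2) in the authors' deposited table. ZNF107, a KRAB gene of chromosome 7, went from 408 to 940, a change of 1.20 ± 0.16, in the same authors' deposited table. Genes without KRAB were among the largest rises too. ZNF618, a partner of the methylcytosine reader UHRF2, had 1.19 ± 0.14, and ZNF652, a DNA-binding repressor, 1.15 ± 0.13 in the authors' deposited table, both past the test. Next by size in the authors' deposited table came ZNF776 (1.08), ZNF395 (1.08), ZNF75D (1.07), ZNF605 (1.07), ZNF267 (1.02) and ZNF225 (1.00).

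ZNF74, a KRAB gene at chr22:20394115-20408461, had the largest fall. It went from 427 in shCTRL to 123 in shE4F1 cells, a log2 change of -1.80 ± 0.20 (adjusted p = 1.63e-17, DESeq2) in the authors' deposited table. ZNF365, known for the stability of fragile sites, went from 569 to 167 (-1.77 ± 0.18), and ZNF32 went from 528 to 164 (-1.69 ± 0.20) in the authors' deposited table. These genes share no domain by the pattern search, since ZNF74 carries KRAB and 12 fingers, ZNF365 has 0 fingers and ZNF32 has 6. Further falls in the authors' deposited table were those of ZNF768 (-1.41), which binds a family of old transposons, ZNF783 (-1.39), the imprinted gene ZNF331 (-1.29), ZNF598 (-1.25), the ubiquitin ligase of collided ribosomes, ZNF581 (-1.21), the BTB protein ZNF131 (-1.19) and ZNF213 (-1.12).

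Under gemcitabine the knockdown comparison asked for the same effect in cells with blocked DNA synthesis. Here 54 of the 263 genes rose and 108 fell in the authors' deposited table, beside 20.3% and 20.8% of all genes. Among genes at the same minimum level 30.1% rose and 31.5% fell in the authors' deposited table, and the median was -0.01, against -0.18 for the ZNF genes. KRAB genes of chromosome 19 counted 9 that rose and 33 that fell of 79, and KRAB genes elsewhere 16 that rose and 25 that fell of 66, in the authors' deposited table. Among SCAN genes without KRAB, 0 rose and 6 of 10 fell in the authors' deposited table. The effect can also be taken from the other pair of tables that hold these groups, with both changes minus gemcitabine in shCTRL, where the SE is a median of 0.242 in place of 0.127 because the untreated shCTRL libraries count in both. It then gave 24 that rose and 46 that fell, with 70 of the 162 calls kept.

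ZNF75D, a KRAB gene on chromosome X, had the largest rise under gemcitabine, from 196 in shCTRL to 797 in shE4F1 cells, a log2 change of 2.02 ± 0.14 (adjusted p = 4.89e-48, DESeq2) in the authors' deposited table. ZNF254 went from 327 to 1052 (1.69 ± 0.16), ZNF395 from 946 to 2580 (1.45 ± 0.12) and ZNF107 from 783 to 2085 (1.41 ± 0.29) in the authors' deposited table. Further large rises were those of ZNF248 (1.28), ZNF618 (1.25), ZNF652 (from 1108 to 2436), ZNF804A (1.12), ZNF138 (0.92) and ZNF862 (0.91) in the authors' deposited table. ZNF32 (-1.87), ZNF365 (-1.87), ZNF134 (-1.79), ZNF783 (-1.58), ZNF74 (-1.57) and ZNF408 (-1.54), a gene of retinal vessel development, fell the furthest in the authors' deposited table. ZNF772 (-1.35), ZNF394 (-1.33), ZNF684 (-1.30) and ZNF331 (-1.26) came next in the authors' deposited table. ZNF684 is 1 of 17 genes that reached the minimum only through treated shCTRL cells, the reference of this comparison. A further 5, among them ZNF75D, ZNF804A and ZNF862, reached it only through untreated shCTRL cells. The changes of all these genes are not independent of the choice of genes. Among the other 241 genes 49 rose and 100 fell in the authors' deposited table.

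The pair of knockdown comparisons share no library. By the authors' deposited tables, a total of 37 genes rose in both, 41 fell in both, 74 were called in neither, 65 fell only under gemcitabine and 17 rose only under gemcitabine, where "only" refers to the threshold and the difference is tested below. A further 18 were called up and 9 called down only without drug in the authors' deposited tables. As shares of the 263 these are 14.1% (up in both), 15.6% (down in both), 28.1% (neither), 24.7% (down only under gemcitabine), 6.46% (up only under gemcitabine), 6.84% (up only untreated) and 3.42% (down only untreated). The shares of all genes at the minimum level were, in the same order, 16.6%, 22.4%, 28.2%, 8.72%, 13.1%, 3.09% and 7.13%. ZNF143 and ZNF264 were called in opposite directions. Pearson's r across the 263 genes was 0.795 and Spearman's rho 0.768, beside an r of 0.825 across all genes at the minimum level. Genes are not independent replicates, and this r is a description.

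**Figure D2:**
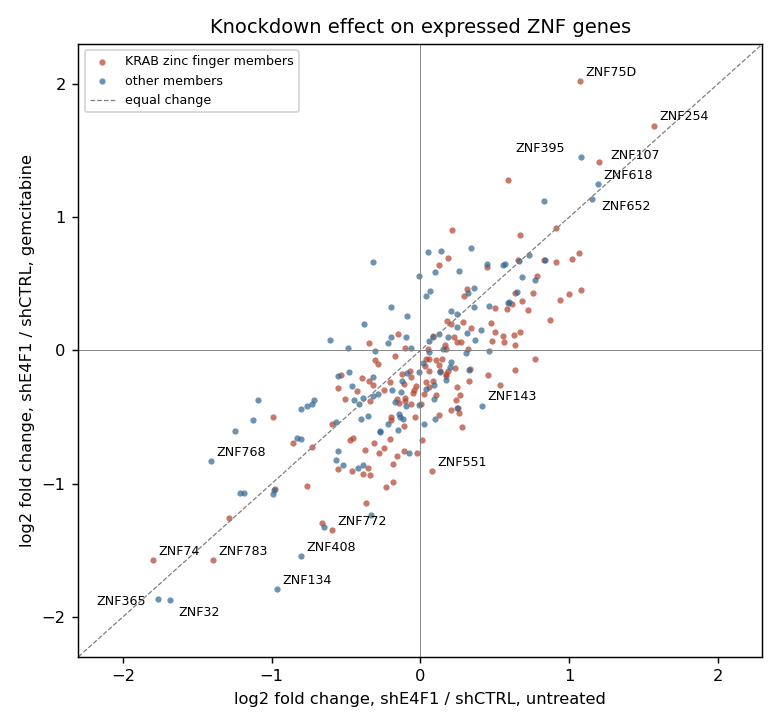
Log2 fold change of each expressed ZNF gene for shE4F1 against shCTRL without drug (horizontal axis) and under gemcitabine (vertical axis), with KRAB genes and others coloured and the line of equal change dashed. Across the 263 points Pearson's r is 0.795; ZNF75D lies above the line and ZNF551 and ZNF134 below it.

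Whether the knockdown effect differed between the conditions was tested by subtracting the untreated from the gemcitabine log2 change, with SEs combined and p-values adjusted over all genes. The difference was above 0 and called for 8 ZNF genes and below 0 and called for 22, beside 2.81% and 2.63% of all genes and 5.21% and 3.13% of genes at the same minimum level. The median difference was -0.18 for the ZNF genes, with 177 of 263 below 0, and 0.09 for genes at the minimum level. KRAB genes of chromosome 19 had 0 calls above and 12 below of 79, with a median of -0.35. KRAB genes elsewhere had 4 above and 4 below of 66. All 22 called below 0 were among the 117 ZNF genes called higher with gemcitabine in shCTRL cells. All 8 called above 0 were among the 18 called lower there. Both results use the same shCTRL libraries, so the difference is not separate from the drug change in shCTRL cells.

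ZNF551, a KRAB gene at chr19:57681969-57717301, had the largest difference below 0. Its knockdown change was 0.08 ± 0.20 untreated and -0.91 ± 0.13 under gemcitabine in the authors' deposited tables. The difference was -0.98 ± 0.24 (adjusted p = 0.00227, normal test of the combined DESeq2 estimates). ZNF16 (-0.91 ± 0.22), ZNF845 (-0.85 ± 0.23) and ZNF81 (-0.84 ± 0.21) followed. ZNF143, an activator of small nuclear RNA genes that also sits at chromatin loop anchors, changed sign: 0.42 ± 0.17 (adjusted p = 0.0451, DESeq2) untreated and -0.41 ± 0.12 (adjusted p = 0.00302, DESeq2) under gemcitabine in the authors' deposited tables. Its level went from 451 to 602 in the untreated table and from 887 to 665 in the gemcitabine table of the authors' deposited tables, and the difference of its log2 changes was -0.83 ± 0.21 (adjusted p = 0.00451, normal test of the combined DESeq2 estimates). With the gemcitabine effect taken from the other pair of tables the fall of ZNF143 did not pass (adjusted p = 0.304, normal test of the combined DESeq2 estimates). ZNF264, the other gene called both ways, went from 0.54 untreated to -0.26 under gemcitabine in the authors' deposited tables.

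Differences above 0 were led by ZNF580 (0.98 ± 0.25) and ZNF75D (0.95 ± 0.21). ZNF580 had -0.32 ± 0.19 untreated, which did not pass the test, and 0.66 ± 0.16 under gemcitabine in the authors' deposited tables. ZNF862 (0.69), ZNF248 (0.69) and ZNF830 (0.69), a factor in splicing and DNA end processing, had the next differences. ZNF862 was near the threshold (adjusted p = 0.0498), and its difference of 0.65 did not pass when all differences were centred on their median (adjusted p = 0.0748, normal test of the combined DESeq2 estimates). ZNF75D and ZNF862 reached the level minimum only through untreated shCTRL cells, whose libraries enter these differences. Their differences are therefore not independent of the choice of genes.

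**Figure D3:**
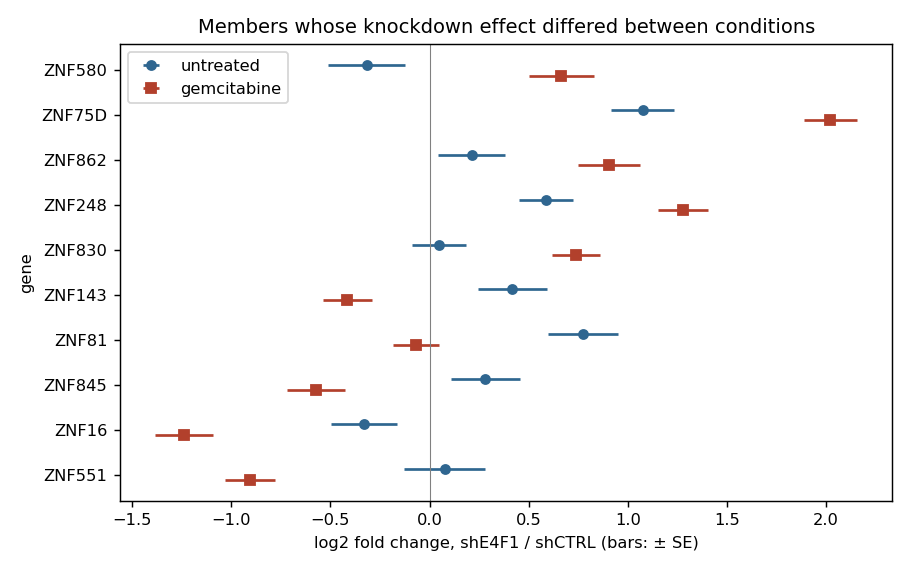
Knockdown log2 fold change (horizontal axis, bars ± SE) without drug and under gemcitabine for the 5 genes with the largest called difference in each direction (vertical axis). ZNF143 lies at 0.42 untreated and at -0.41 under gemcitabine.

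Gemcitabine in shCTRL cells is the comparison whose mean level chose the genes, so its counts carry no test here. By the authors' deposited table, a total of 117 of the 263 genes were called higher and 18 lower, beside 14.5% and 13.5% of all genes and 14.1% and 22.1% of genes at the same minimum level. KRAB genes of chromosome 19 had 49 higher and 0 lower of 79, KRAB genes elsewhere 30 and 5 of 66, and genes without KRAB 38 and 13 of 118 in the authors' deposited table. ZNF684 went from 157 untreated to 463 with drug (1.56), and ZNF697 from 2115 to 5562 (1.39) in the authors' deposited table. ZNF699 (1.27), ZNF551 (1.23), ZNF430 (1.23), ZNF81 (1.18), ZNF136 (1.16), ZNF681 (1.15), ZNF100 (1.13) and ZNF649 (1.12), all with KRAB, were next in the authors' deposited table. At the low end of the authors' deposited table stood ZNF75D (-1.26, from 479 to 199), ZNF248 (-1.01), ZNF449 (-0.85), ZNF580 (-0.85), ZNF277 (-0.84), ZNF830 (-0.80), ZNF33B (-0.79), ZNF25 (-0.74), ZNF385B (-0.72) and ZNF395 (-0.70). ZNF684, ZNF699 and ZNF100 reached the level minimum only through treated shCTRL cells, and ZNF75D only through untreated ones. Their places at the ends of this ranking are therefore not independent of the choice of genes. This comparison shares the untreated or treated shCTRL libraries with each of the other 3 deposited ones, so no correlation with them is given.

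For gemcitabine in shE4F1 cells the change was worked out as both changes minus the untreated knockdown, with an SE that is too large because the untreated shCTRL libraries count in both. Of the 263 genes 5 rose and 0 fell at an adjusted p under 0.05 by this normal test, beside 0.925% and 0.185% of all genes and 1.71% and 0.359% of genes at the same minimum level. At an unadjusted p under 0.05 there were 23 above and 3 below 0, beside 6.32% and 4.11% of genes at the minimum level. The 5 were ZNF367 at 1.55 ± 0.23 (adjusted p = 1.75e-08, normal test of the combined DESeq2 estimates), then ZNF273 (1.08 ± 0.26), ZNF681 (1.02 ± 0.26), ZNF430 (0.96 ± 0.27) and ZNF714 (0.93 ± 0.24). ZNF367 lies on chromosome 9 and ZNF273 on chromosome 7, and the others lie on chromosome 19. The median change was 0.10, beside -0.04 for genes at the minimum level, and the median SE was 0.244.

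Against untreated shCTRL cells, shE4F1 cells with gemcitabine had 65 ZNF genes that rose and 35 that fell in the authors' deposited table, beside 15.8% and 16.3% of all genes. Genes at the same minimum level rose in 16.1% and fell in 26.4% in the authors' deposited table. ZNF107 had the largest rise, from 455 to 1953, followed by ZNF254 (1.70), ZNF367 (1.54), ZNF267 (1.40), ZNF138 (1.27) and ZNF618 (1.24) in the authors' deposited table. ZNF32 had the largest fall, from 564 to 111 (-2.34), followed by ZNF74 (-1.75), ZNF783 (-1.75), ZNF134 (-1.37), ZNF581 (-1.22) and ZNF131 (-1.18) in the authors' deposited table. Over the 4 comparisons 46 ZNF genes (17.5%) were called in none and 17 (6.46%) in every one of the authors' deposited tables, beside 21.1% and 7.83% of genes at the minimum level.

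Chromosome 19 held 97 of the 263 genes, and splitting them wherever more than 1 Mb separated neighbours gave 18 clusters, some of 1 gene. Those named here were chosen after their values were seen, and their counts are to be read beside the shares of all genes at the minimum level. With knockdown 20.1% of those rose and 29.9% fell untreated, and 30.1% rose and 31.5% fell under gemcitabine. With gemcitabine 14.1% were called higher in shCTRL cells, and 1.71% rose in shE4F1 cells by the normal test. The difference of knockdown effects was called above 0 in 5.21% and below 0 in 3.13%. In the cluster from ZNF430 to ZNF100 (chr19:21020620-21767628), with 5 genes, all 5 were higher with gemcitabine in shCTRL cells (median 1.05) in the authors' deposited table, and 2 of the 5 rose in shE4F1 cells by the normal test (median 0.76). The 17 genes that reached the level minimum only through treated shCTRL cells include ZNF100. The 5 of 5 and the median of 1.05 are therefore not independent of the choice of genes. In the neighbouring cluster, from ZNF91 to ZNF254 (chr19:23304991-24129961), 3 of 4 genes rose with knockdown in untreated cells (median 0.69) in the authors' deposited table. ZNF91, which represses SVA transposons, rose there by 0.94 ± 0.19 in the authors' deposited table. Of the 11 genes from ZNF576 to ZNF180 (chr19:43596392-44500524), 6 rose and 1 fell in untreated knockdown cells (median 0.62), and 4 rose and 1 fell under gemcitabine (median 0.14), in the authors' deposited tables.

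Of the 18 genes from ZNF175 to ZNF331 (chr19:51571298-53580269), 4 rose and 1 fell with knockdown untreated, and 0 rose and 9 fell under gemcitabine, in the authors' deposited tables. A called difference between conditions was found in 4 of the 18, all below 0 (median -0.51), beside 3.13% of genes at the minimum level called below 0. Of the 19 genes from ZNF264 to ZNF324 (chr19:57191500-58475436), 2 rose and 5 fell with knockdown untreated, and 1 rose and 9 fell under gemcitabine, in the authors' deposited tables. A called difference below 0 was found in 6 of the 19, beside the same 3.13%. The 8 genes from ZNF146 to ZNF527 had 2 that rose and 1 that fell untreated and 0 that rose and 5 that fell under gemcitabine in the authors' deposited tables. Not every cluster followed: of the 6 genes from ZNF627 to ZNF791, 1 rose and 0 fell under gemcitabine in the authors' deposited table. Neighbours in a cluster are similar in sequence, so reads that fit more than 1 of them could have been assigned or dropped unevenly, and whether they were is not given in the sources used here.

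**Figure D4:**
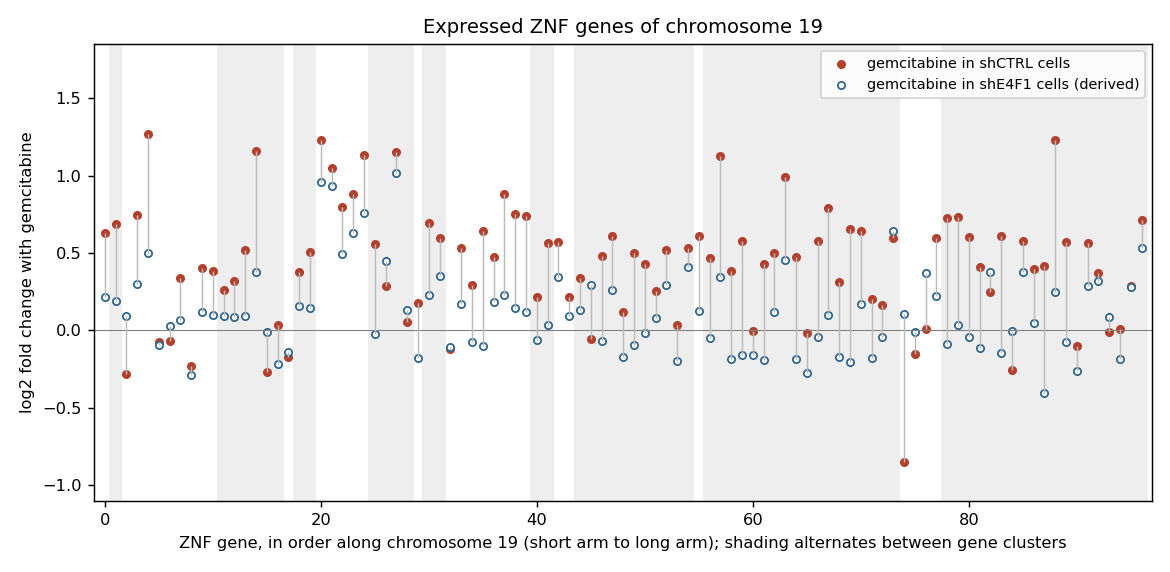
Log2 fold change with gemcitabine (vertical axis) of the 97 expressed ZNF genes of chromosome 19, in gene order along the chromosome (horizontal axis), in shCTRL cells (filled) and, as worked out from a pair of tables, in shE4F1 cells (open). Shading alternates between clusters. The 5 genes of the cluster from ZNF430 to ZNF100 have a median of 1.05 for gemcitabine in shCTRL cells. ZNF100 reached the level minimum only through treated shCTRL cells.

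Calls were also counted by the number of fingers, and are to be read beside the 20.1% that rose and 29.9% that fell untreated, and the 30.1% and 31.5% under gemcitabine, among all genes at the minimum level. Of the 38 genes with 17 or more fingers, 15 rose and 3 fell with knockdown in untreated cells in the authors' deposited table, with a median of 0.28. Of the 16 genes with 0 or 1 finger, 4 rose and 7 fell there in the authors' deposited table. Under gemcitabine the 76 genes with 9 to 12 fingers had 9 that rose and 38 that fell, and the 38 genes with 17 or more had 10 that rose and 7 that fell, in the authors' deposited table. KRAB proteins had more fingers (median 12 against 7), so these counts are not separate from those by domain.

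**Figure D5:**
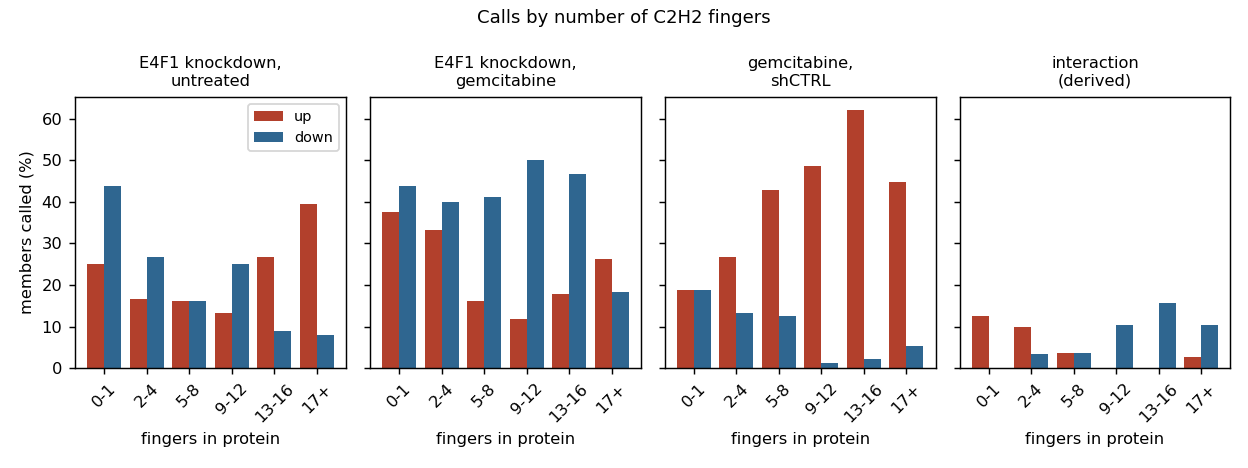
Share of the expressed ZNF genes called up or down (vertical axis, percent) by the number of finger patterns in the protein (horizontal axis), one panel a comparison. With 17 or more fingers 15 of 38 genes rose with knockdown in untreated cells, beside 20.1% of all genes at the minimum level.

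KRAB proteins act through TRIM28, so the genes of that corepressor and of heterochromatin were read beside them. TRIM28, at chr19:58544091-58550722, fell by 1.37 ± 0.13 (adjusted p = 3.57e-23, DESeq2) with knockdown untreated and to 0.453 of the shCTRL level (adjusted p = 1.23e-23, DESeq2) under gemcitabine in the authors' deposited tables. Its level went from 4874 to 1888 without drug and from 5811 to 2630 with drug in the authors' deposited tables. CBX1, the heterochromatin protein HP1 beta, fell by 1.77 ± 0.18 and by 1.99 ± 0.13 in the authors' deposited tables. The H3 lysine methyltransferases SUV39H1 (-0.77 and -0.53) and SUV39H2 (-0.73 and -0.85) and the DNA methyltransferase DNMT1 (-0.49 and -0.48) fell in both of these authors' deposited tables. Among other partners the deacetylase HDAC1 rose by 0.89 and 0.93 and the remodeller CHD3 by 0.57 and 0.57 in the authors' deposited tables. ATF7IP (0.52 and 0.48), FAM208A (0.51 and 0.70), PPHLN1 (0.32 and 0.48), EHMT2 (0.44 and 0.63), TRIM24 (0.64 and 0.57) and KDM4B (0.57 and 0.91) also rose in both. Under gemcitabine alone CHD4 (0.44), MTA1 (0.32), EHMT1 (0.41), DNMT3A (0.49) and KDM4A (0.32) were called up in the authors' deposited table. SETDB1, the methyltransferase recruited by TRIM28, had -0.01 and 0.07, neither past the test, in the authors' deposited tables. MTA2 (-0.34) and MORC2 (-0.42) fell untreated, and MPHOSPH8 (-0.42), TRIM33 (-0.30) and DNMT3B (-0.66) fell under gemcitabine, in the authors' deposited tables. Of the 32 genes on the list 8 rose and 7 fell untreated, beside 20.1% and 29.9% of genes at the minimum level, in the authors' deposited table. Under gemcitabine 13 rose and 8 fell, beside 30.1% and 31.5%, in the authors' deposited table. The list had no single direction.

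The role lists are small, and their counts are to be read beside the same shares of genes at the minimum level, 20.1% up and 29.9% down untreated and 30.1% up and 31.5% down under gemcitabine. Of 9 KRAB genes with described targets, 4 rose and 1 fell untreated, and 3 rose and 2 fell under gemcitabine in the authors' deposited tables. ZNF268 (0.68), ZNF224 (0.62), a repressor of the aldolase gene, and ZNF675 (0.45) rose untreated, beside ZNF91, in the authors' deposited table. ZNF202, a repressor of lipid transport genes, fell by 0.53 untreated, and ZNF445, which guards imprinted loci, fell by 0.66 under gemcitabine in the authors' deposited tables. ZNF8 had 0.34 and 0.17, neither past the test, in the authors' deposited tables.

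Of 11 ZNF genes with roles in RNA, ribosomes or the spindle, 2 rose and 4 fell untreated and 3 rose and 4 fell under gemcitabine in the authors' deposited tables. ZNF598 went from 1381 to 582 untreated and from 1425 to 938 under gemcitabine (-0.60 ± 0.13) in the authors' deposited tables. ZNF593, a biogenesis factor of the large ribosomal subunit, had -1.09 ± 0.46 untreated (adjusted p = 0.0463, DESeq2, and 0.0509 by a normal test after centring) and -0.38 ± 0.22 under gemcitabine, which did not pass the test, in the authors' deposited tables. ZNF622, a maturation factor of the same subunit, had -0.14 untreated and fell by 0.47 under gemcitabine in the authors' deposited tables. ZNF326, of the complex that couples splicing to elongation, rose by 0.36 and 0.47, and ZNF106 by 0.59 and 0.35 in the authors' deposited tables. ZNF330, a nucleolar protein, fell by 0.55 and 0.76, and ZNF706 by 0.76 and 0.42 in the authors' deposited tables. ZNF207 had -0.01 and -0.16, neither past the test, in the authors' deposited tables.

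Among 28 activators and cofactors 6 rose and 4 fell untreated, and 10 rose and 12 fell under gemcitabine in the authors' deposited tables. ZNF644, a partner of the methyltransferase G9a, rose by 0.68 and 0.55, and ZNF827, which recruits the NuRD complex to telomeres, by 0.77 and 0.53 in the authors' deposited tables. The authors' deposited tables give rises of 0.57 and 0.65 for ZNF318. Of a chromatin reader module, ZNF592 had -0.12 and fell by 0.51, while ZNF687 (0.08 and 0.10) and ZNF532 (0.19 and 0.10) did not pass the test in the authors' deposited tables. ZNF516 (0.76) and ZNF217 (0.29), a breast cancer oncogene, rose under gemcitabine in the authors' deposited table. ZNF384 fell by 0.56 and ZNF24 by 0.77 there in the authors' deposited table, while ZNF148 (0.12) and ZNF281 (-0.08) did not pass the test. With knockdown under gemcitabine taken from the other pair of tables, whose SE is larger, the calls of ZNF268, ZNF224, ZNF675, ZNF598, ZNF622, ZNF326, ZNF106, ZNF706, ZNF644, ZNF827, ZNF592 and ZNF217 were lost.

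E4F1 binds a word that it shares with CRE and ATF sites, so promoters were searched for TGACGT on both strands, from 250 bases before to 50 after the start site. Of the 263 genes 230 had a promoter in RefSeq (GRCh38.p14), and 31 of them (13.5%) held the word, beside 9.67% of 15842 coding promoters. TGACGTCA reads the same on both strands, so 1 site can give 2 overlapping matches. Of the 31 genes with the word 4 rose and 7 fell untreated and 6 rose and 15 fell under gemcitabine, and of the 199 without it 45 rose and 35 fell untreated and 41 rose and 76 fell under gemcitabine, in the authors' deposited tables. Among all genes at the minimum level, 20.1% rose and 29.9% fell untreated, and 30.1% rose and 31.5% fell under gemcitabine. A match is a description and not a bound site. The next lines show 30 bases of promoters from 5 neighbours on chromosome 19. These were chosen after their sequences were seen, because the letters around the word are alike. Those of the named genes ZNF143, ZNF783 and ZNF598 follow, with no rule for their choice. These named genes fell with knockdown under gemcitabine, while ZNF138, a named gene with the word that is not shown, rose. ZNF598 also holds the word further from the start, which is not shown. The word is in capitals and each line is read 5′ to 3′ on the gene's strand.
ZNF561: ttgaagcggaagTGACGTcagcgcaccacc
ZNF562: tcggagcggaagTGACGTcagtgtgccacc
ZNF121: tcggagcggaagTGACGTcagcgcacaatc
ZNF266: tggaggcggaagTGACGTcacggagcgctg
ZNF426: ggagagcgtaaaTGACGTcagcggtgcgcc
ZNF143: gtcaggcttggcTGACGTcagttgagtggg
ZNF783: gtggcttacgccTGACGTagccccgctgga
ZNF598: tgggtggggcggTGACGTttgcccggaagg

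The windows lie, in GRCh38.p14, at chr19:9621238-9621267 (minus strand) for ZNF561, chr19:9675090-9675119 (minus) for ZNF562, chr19:9584537-9584566 (minus) for ZNF121, chr19:9435573-9435602 (minus) for ZNF266 and chr19:9538649-9538678 (minus) for ZNF426. Those of the others are chr11:9460836-9460865 (plus) for ZNF143, chr7:149261946-149261975 (plus) for ZNF783 and chr16:2009816-2009845 (minus) for ZNF598. The 5 neighbours with like windows did not share a response. Under gemcitabine ZNF561 (-0.24), ZNF562 (-0.32) and ZNF426 (-0.30) fell with knockdown, ZNF121 (0.33) rose, and ZNF266 (0.01) did not pass the test in the authors' deposited table. Part of the ZNF143 site, ACTACAA, was found in 16 of the 230 promoters (6.96%), beside 3.14% of coding promoters. Of these 16, 3 rose and 2 fell untreated and 4 rose and 7 fell under gemcitabine, and of the 214 without it 46 rose and 40 fell untreated and 43 rose and 84 fell under gemcitabine, in the authors' deposited tables. Genes at the minimum level rose in 20.1% and fell in 29.9% untreated, and rose in 30.1% and fell in 31.5% under gemcitabine. The CCAAT box was found in 44.3% beside 36.4% of coding promoters, and the GC box GGGCGG in 63.9% beside 58.5%.

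Other zinc finger families were counted beside the same shares of genes at the minimum level, 20.1% up and 29.9% down untreated and 30.1% up and 31.5% down under gemcitabine. Of the 29 ZBTB genes at the minimum level 12 rose and 4 fell with knockdown untreated and 13 rose and 7 fell under gemcitabine in the authors' deposited tables. Of the 16 ZSCAN and ZKSCAN genes 3 rose and 4 fell untreated, and 1 rose and 7 fell under gemcitabine in the authors' deposited tables. Of the 9 ZFP genes 1 rose and 2 fell untreated, and 3 rose and 3 fell under gemcitabine in the authors' deposited tables. The 218 ZNF genes under the minimum counted 43 that rose and 18 that fell untreated and 35 that rose and 46 that fell under gemcitabine in the authors' deposited tables, with larger counting error at low levels. With gemcitabine in shCTRL cells 8 ZSCAN and ZKSCAN genes were called higher and 0 lower in the authors' deposited table. The counts were 5 and 5 for ZBTB, 1 and 1 for ZFP and 52 and 6 for ZNF genes under the minimum. Genes at the minimum level had 14.1% and 22.1%. The difference of knockdown effects was called above 0 for 0 and below 0 for 2 ZSCAN and ZKSCAN genes, beside 5.21% and 3.13%. The difference between these families was not tested.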

How the data were processed

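RNA of 12 libraries was measured by stranded mRNA sequencing with 50-base single reads, per the labels' protocols. The submitters' processing notes name DESeq2 1.14.1, R 3.4.0, HTSeq 0.9.0, TopHat2 2.1.1, Bowtie2 2.2.9 and the build GRCh38.p7, without settings. Of strand setting, gene annotation and model design, each is not given in the sources used here. The authors' deposited tables, per the file headers, hold for each gene a mean normalized count (a signal over both groups), the log2 fold change and SE, the Wald statistic (a score), and p-values with their adjusted form. The deposited count table was not used: its 12 columns match no label, so depth per library is unknown here.

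From these tables group levels were worked out (mean level split by the fold change). Gemcitabine in shE4F1 (both changes minus untreated knockdown) and the difference of the knockdown effects (gemcitabine minus untreated) were each put to a two-sided normal test with the combined SEs and Benjamini-Hochberg adjustment over all genes. The calculation was run on simulated fold changes drawn with the deposited SEs. The draws were independent, which does not hold for gemcitabine in shE4F1, so the run checks the arithmetic alone. A gene was called at an adjusted p under 0.05 and is said to rise or fall only then. Gene positions and proteins came from GENCODE 29 (GRCh38), promoters from RefSeq. Python 3.11.15, numpy 2.4.6, pandas 2.3.3, scipy 1.17.1 and matplotlib 3.10.9 were used.

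Genes were named by rule: the 10 largest called changes each way per comparison, the 5 largest each way for the difference of effects, the 5 highest levels, the 3 nearest the minimum on each side, and the role lists. Some named with their cluster or promoter, or counted with 5 or fewer, were chosen after their values were seen. The genes and lists were chosen with earlier results of these data known. Alternatives tried were the threshold, a minimum fold change, the level minimum, adjustment over genes with a mean of 50 or more, centring and other pairs of tables, and, chosen after seeing the data, leaving out genes at the minimum in only 1 shCTRL group.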

Additional observations from a re-analysis of the deposited data

Results flagged for a closer look

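In 10 ZNF genes, the 5 largest called in each direction, the knockdown effect under gemcitabine differed from that in untreated cells by the test of the difference. Above 0 were ZNF580 (0.98), ZNF75D (0.95), ZNF862 (0.69), ZNF248 (0.69) and ZNF830 (0.69). Below 0 were ZNF551 (-0.98), ZNF16 (-0.91), ZNF845 (-0.85), ZNF81 (-0.84) and ZNF143 (-0.83). Values are differences of log2 fold changes. The genes above 0 were called lower, and those below 0 higher, with gemcitabine in shCTRL cells, whose libraries enter both results. ZNF862 lost its call when the differences were centred on their median (0.65). ZNF75D and ZNF862 reached the level minimum only through untreated shCTRL cells, so their differences are not independent of the choice of genes. Both effects passed the test in opposite directions for ZNF143 in the authors' deposited tables, the fall not when taken from the other pair of tables.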

How the results depend on the processing

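No paired analysis was possible because the columns of the count table carry no sample names. For the same reason no library could be left out in turn and no count test was fitted. Values of named genes, role lists included, were recomputed under each setting that applied to them, and 0 reversed. Centring ended the call of 2 of 182, ZNF862 for the difference and ZNF593 for knockdown untreated, and adjusting over genes with a mean of 50 or more gained 3. With the other pair of tables, a total of 21 of 85 lost their call, all for knockdown under gemcitabine. Settings chosen after seeing the data lost 12 of 141 calls (adjusted p under 0.01) and 70 of 141 (a log2 change of at least 1). Of 83 counts of called genes, leaving out those for a main count of 0, 52 stayed within 1.5 times of the main count, among them all those without the 22 genes that reached the level minimum through 1 shCTRL group.

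Requiring a log2 change of at least 1 left, up and down, 9 and 11 genes for knockdown untreated, 8 and 19 under gemcitabine, 16 and 2 for gemcitabine in shCTRL, 13 and 6 for both changes, and 3 up for gemcitabine in shE4F1. For the difference of effects it left 0 and 0. With a level minimum of 1000, which keeps fewer genes, the counts were 18 and 19, 24 and 38, 29 and 6, and 18 and 16 for these 4 deposited comparisons, 1 up for gemcitabine in shE4F1, and 4 and 4 for the difference. With a minimum of 100, 86 genes rose with knockdown untreated and 100 with both changes. At an adjusted p under 0.01, 2 rose for gemcitabine in shE4F1, and the difference had 4 above and 10 below 0. Centring the difference on its median left 5 above 0. Taken from the other pair of tables, where the SE is larger by construction, knockdown under gemcitabine had 24 up and 46 down and gemcitabine in shCTRL had 65 up.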
